A study of Mus musculus with 6 samples.

Results

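The genes described here are the 49 genes of the G1/S transition and of DNA replication that were listed by symbol and found in the deposited expression table, out of the 13564 genes of that table and the 55487 genes of the count files. They were grouped by role into the MCM helicase, the factors that activate it, origin licensing, the polymerases and primase, the sliding clamp with its loader and the enzymes that join Okazaki fragments, nucleotide supply, chromatin assembly with the histone mRNA binding protein, and the E2F factors with the E-type cyclins. Each symbol matched 1 gene, and all 49 had enough counts to be tested.

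RNA was sequenced from 3 Foxo1TKO and 3 Foxo1Ctrl cultures of naive CD4 T cells (CD4N). Both genotypes carry loxP-flanked Foxo1 alleles (Foxo1 fl/fl) on a C57BL/6 background, labelled C57BL/6J, and the methods add a Foxp3-GFP reporter and describe such mice as young adults. Foxo1TKO mice also carry CD4cre, which acts at the double-positive stage in the thymus and therefore in both the CD4 and the CD8 lineage, so that their CD4N cells had developed without Foxo1, whereas Foxo1Ctrl mice have no Cre. Flow cytometry gave CD4N cells from lymph nodes, and each culture ran for 4 days on an antibody to CD3 (clone 145-2C11) at 0.1 µg/ml. Each held 250000 splenocytes of CD3eKO mice, which lack T cells and are not deleted for Foxo1, in both groups alike. The labels give 50000 T cells per culture and the methods give a larger number, and neither text says whether the splenocytes were removed before RNA extraction or whether each library came from its own mouse. No unstimulated culture and no other day was analysed here.

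When a resting T cell is stimulated through its antigen receptor, G1 cyclin-dependent kinases inactivate the retinoblastoma family, and E2F factors then drive the genes of the G1/S transition. The origin recognition complex with Cdc6 and Cdt1 loads the ring of Mcm2 to Mcm7 on DNA in G1, and the kinases of S phase attach Cdc45 and the GINS complex to make a working helicase. Primase and polymerase alpha start each new strand, polymerases delta and epsilon extend it on the Pcna clamp, and Fen1 and Lig1 finish the lagging strand.

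Foxo1 itself followed the labels. It stood at 85.4, 46.5 and 115 normalized counts in Foxo1TKO libraries 1 to 3 and at 1528, 2285 and 1598 in the Foxo1Ctrl libraries (log2 fold change -4.45 ± 0.36 SE, edgeR's quasi-likelihood test, Benjamini-Hochberg adjusted p = 0.000195). The related Foxo3 had a log2 fold change of -0.57 ± 0.30 (adjusted p = 0.211). Normalized counts here are deposited expected counts scaled by the TMM method, and log2 fold changes are edgeR estimates of Foxo1TKO over Foxo1Ctrl with 3 libraries each. Their standard errors (SE) are not given by edgeR and were derived from its test. Each is the absolute log2 fold change divided by the square root of the quasi-likelihood F statistic. Library totals ran from 14783890 to 19675447 counts. Of 13691 genes tested, 11.8% were higher and 12.4% lower in Foxo1TKO at an adjusted p under 0.05, and the median log2 fold change over all of them was 0.01.

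The cultures held RNA of T cells and of other cells. Levels per unit of transcript length are given as deposited TPM, and the markers of T cells summed to 9244 to 10060 TPM in Foxo1TKO against 11160 to 11230 TPM in Foxo1Ctrl, with 1 of 12, Cd28, lower by the test. Markers of B cells summed to 227 to 323 TPM against 526 to 1049 TPM, and 5 of the 10 tested were lower (Cd79a, Cd79b, Ms4a1, Cd22 and Ighm, the most abundant). Those of plasma cells summed to 111 to 160 TPM against 179 to 240 TPM, and 2 of 4, Jchain and Mzb1, were lower. Sums for NK cells were 39.9 to 53.6 TPM against 23.1 to 24.7 TPM, with 1 of 4, Eomes, higher. Klra8 was at 0 in every library. Eomes held most of that gap (26.8 TPM in Foxo1TKO against 5.29 TPM in Foxo1Ctrl on average). The other NK cell markers tested, Klrc1 (log2 fold change 0.15), Klre1 (0.38) and Klrb1c (-0.68), did not pass. The paper reports higher Eomes transcription in activated T cells without Foxo1. Sums for dendritic cells were 10.43 to 11.04 TPM against 2.11 to 4.43 TPM, with 1 of 3, Itgax, higher and Cd209a at 0. Itgax held nearly all of that gap (7.12 against 0.15 TPM on average). The others tested, Xcr1 (log2 fold change 0.44) and Zbtb46 (-0.48), did not pass. Sums for macrophages were 4.41 to 5.84 TPM against 2.41 to 3.4 TPM, with Mertk, C1qa and C1qc at 0. In bulk RNA, fewer cells of a type and less RNA per cell cannot be told apart, and the part of these cells in the results below was not tested.

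Some of the promoters of these genes hold the letters that E2F factors are known to bind. Some of the stretches around such letters are shown first. The RefSeq promoter table (GRCm38.p6, 250 bases before and 50 after a transcription start) held 40 of the 49 genes; Ccne2, Gins1, Gins2, Gins4, Gmnn, Mcm4, Pole, Prim2 and Rfc2 had no entry. The letters searched on both strands were TTTCCCGC, TTTGGCGC, TTTGCCGC and TTTCGCGC, and capitals mark each match, including matches that overlap. Sequences are written 5′ to 3′ along the strand of the gene and lie upstream of the RefSeq start.
Mcm6, rose, chr1:128359735-128359825, minus strand: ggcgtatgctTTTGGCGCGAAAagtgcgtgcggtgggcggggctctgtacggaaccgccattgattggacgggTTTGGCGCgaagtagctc
Mcm5, rose, chr8:75109346-75109377, plus strand: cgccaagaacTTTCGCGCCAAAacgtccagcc
Orc1, rose, chr4:108579417-108579444, plus strand: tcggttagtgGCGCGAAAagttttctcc
E2f3, rose, chr13:29986064-29986084, minus strand: tgaaaagccgGCGGGAAAtct
Gins3, did not pass the test, chr8:95633508-95633535, plus strand: cgagtgcggcGCGGGAAAgcgagtttga
E2f7, did not pass the test, chr10:110745231-110745258, plus strand: ccgcgtccccGCGGGAAAcgctcccgcg

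Mcm6 held 3 matches and Mcm5 held 2, and in both promoters a pair of matches on opposite strands overlapped. At least 1 match stood in the promoters of 15 of the 40 genes (37.5%), against 704 of all 27025 genes of the table (2.60%). Among the genes that rose the share was 8 of 23 (34.8%), and among those that did not pass the test it was 7 of 17 (41.2%). The share was therefore not lower among the genes that did not pass. The CCAAT letters were found in 25 of the 40 genes (62.5%) against 41.1% of all genes, TTTGAA or TTCGAA in 11 (27.5%) against 21.7%, and the forkhead letters GTAAACA in 2, Mcm7 and Cdc45 (5.0%), against 4.05%. A match is a description of these windows, not a bound site.

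Most of the replication genes were higher without Foxo1. In Foxo1TKO cultures, 26 of the 49 genes (53.1%) rose at an adjusted p under 0.05, against 11.8% of all genes tested, and 1 gene, Prim2, fell (2.04% against 12.4%). The rises ran from 1.55-fold for Dut to 3.77-fold for Gins1, so that all 27 changes were also over 1.5-fold (background 11.1% higher and 11.8% lower). The log2 fold change was positive for 46 of the 49 genes, with a median of 0.84 and a range from -0.89 to 1.91. The 3 Foxo1TKO libraries lay entirely above the 3 Foxo1Ctrl libraries for 35 genes (21.5% of all genes did so) and entirely below for 1 gene (21.2%), and the groups overlapped for 13. Transcript levels do not measure division. By dye dilution, the paper found markedly less proliferation of Foxo1-deficient cells in such cultures. How the levels given here relate to that was not tested.

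**Figure D1:**
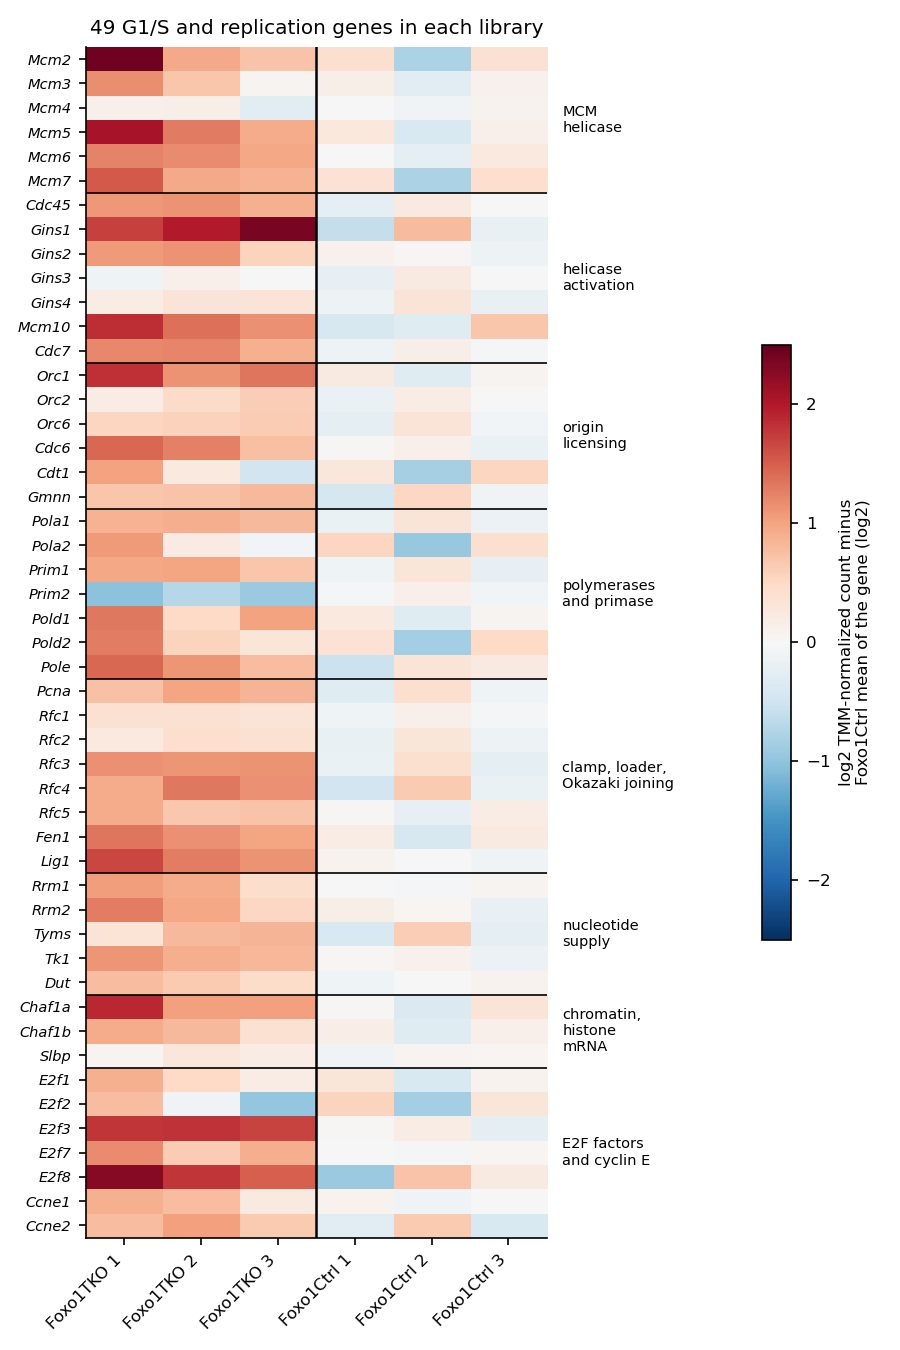
Colour shows the log2 normalized count of each of the 49 genes (rows, grouped by role) in each library (columns) minus the gene's mean over the 3 Foxo1Ctrl libraries. The Foxo1TKO columns are red for most rows and blue for Prim2 in all 3, while Mcm4 and Gins3 hold both colours.

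Of the 22 genes that did not pass, 9 had Foxo1TKO libraries that all lay above the Foxo1Ctrl libraries, with log2 fold changes from 0.36 to 1.47 and adjusted p-values from 0.0511 to 0.111 by edgeR's quasi-likelihood test. They were Mcm2, Mcm7, Orc6, Gmnn, Pold1, Rfc1, E2f7, Ccne1 and Ccne2. The other 13 overlapped between the genotypes. Of the genes that rose, Cdc45, Gins2, Orc1, Pole, Rfc4, Rfc5, Fen1, Lig1, Tk1, Chaf1a and E2f8 share exon bases with an annotated gene on the opposite strand, so that their counts are less certain where reads were counted without strand.

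The MCM helicase is a ring of 6 related proteins, and its transcripts did not move alike. Mcm6 was the most abundant in every library and Mcm2 the least. Mcm6 stood at 8512, 8175 and 7002 normalized counts in Foxo1TKO and at 3560.2, 3074 and 4237 in Foxo1Ctrl. The groups were far apart (2.18-fold, log2 fold change 1.12 ± 0.17 SE, adjusted p = 0.00288). Mcm5 stood at 2031, 1194 and 922 against 578, 372 and 527, again without overlap (log2 fold change 1.49 ± 0.31, adjusted p = 0.0121).

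Mcm4 stood at 3394, 3437 and 2548 normalized counts in Foxo1TKO against 3119, 2928 and 3318 in Foxo1Ctrl. Its groups overlapped on both sides and its log2 fold change was 0.0022 ± 0.16 (adjusted p = 0.994). Mcm2 stood at 1491, 537 and 455 against 368, 160.1 and 363. All Foxo1TKO values were above all Foxo1Ctrl values, but Foxo1TKO 1 was well above the other two Foxo1TKO libraries, and the difference of 1.47 ± 0.51 did not pass (adjusted p = 0.0711). Without Foxo1TKO 1 it was 0.73. Mcm7 (1.05 ± 0.33, adjusted p = 0.0561) and Mcm3 (0.70 ± 0.27, adjusted p = 0.103) did not pass either. In 11 other planned fits on all libraries, Mcm7 passed in 6, Mcm2 in 3 and Mcm3 in 0. With 1 library left out, Mcm3 passed in 1 of 6 fits and Mcm2 and Mcm7 in 0. The Mcm7 locus shares exon bases with Cops6 and Ap4m1 on the opposite strand and holds Mir25 and Mir93, and strandedness is not given in the sources used here. As a level per length, Mcm6 was 3.13 ± 0.247 times Mcm4 in Foxo1TKO and 1.43 ± 0.143 times in Foxo1Ctrl (SD of the TPM ratio, n = 3), with library ratios of 2.9 to 3.39 against 1.3 to 1.58.

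**Figure D2:**
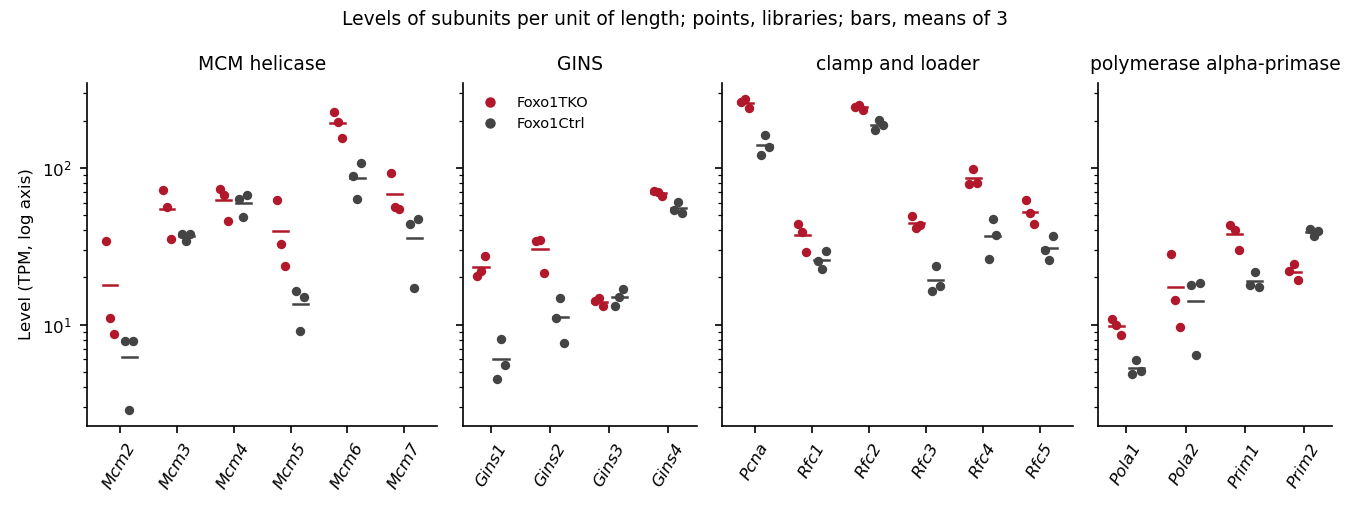
Each point is the level of a subunit in 1 library in TPM on a log axis, and each bar is the mean of 3 libraries (red, Foxo1TKO; grey, Foxo1Ctrl). Mcm6, Gins1, Pcna, Rfc3 and Prim1 are higher in Foxo1TKO in all libraries, Mcm4 and Gins3 overlap, and Prim2 is lower in all 3.

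Helicase activation held the gene with the highest fold change of the 49. Gins1, a subunit of the GINS complex, stood at 247, 300.1 and 393 normalized counts in Foxo1TKO and at 50.1, 130.4 and 66.9 in Foxo1Ctrl. The lowest Foxo1TKO library was above the highest Foxo1Ctrl library (3.77-fold, log2 fold change 1.91 ± 0.38 SE, adjusted p = 0.00908). In all, 5 of the 7 genes of this group rose. Gins2 rose with it (0.93 ± 0.21, adjusted p = 0.0149), although 2758 of its exon bases are shared with Gse1 on the opposite strand, which had at most 46.2 counts in a library. The other two GINS subunits did not pass: Gins3 stood at 422, 494 and 449 against 393, 528 and 448, with overlapping groups (-0.0055 ± 0.18, adjusted p = 0.987), and Gins4 had a log2 fold change of 0.26 ± 0.18 (adjusted p = 0.339).

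These subunits form a complex in which each is present once, and their levels per length differed. Gins4 was the most abundant in every library, at 65.7 to 71.3 TPM in Foxo1TKO and 51.2 to 60.2 TPM in Foxo1Ctrl. The least abundant was Gins1 in all 3 Foxo1Ctrl libraries (4.47 to 8.13 TPM) and Gins3 in all 3 Foxo1TKO libraries (13.1 to 14.7 TPM). The ratio of the highest to the lowest subunit was thus 4.74 to 5.04 in Foxo1TKO and 7.41 to 12 in Foxo1Ctrl.

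Cdc7, the catalytic subunit of the kinase that triggers origins, stood at 543, 551 and 437 normalized counts in Foxo1TKO against 218, 263 and 232 in Foxo1Ctrl. It did not overlap between the genotypes (log2 fold change 1.10 ± 0.19, adjusted p = 0.00479). Cdc45, which joins the ring and GINS in the active helicase, rose by 1.01 ± 0.21 on the log2 scale (adjusted p = 0.0101), and 209 of its exon bases are shared with the more abundant Ufd1 on the opposite strand. Mcm10, which helps to start unwinding, stood at 286, 209 and 176 against 60.8, 65.2 and 129 (1.38 ± 0.35, adjusted p = 0.0254). With 1 library left out, it passed in 2 of 6 fits (1.15 to 1.81).

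In origin licensing, 2 of 6 genes were higher. Orc1, the largest subunit of the origin recognition complex, stood at 145, 88.6 and 103 normalized counts in Foxo1TKO against 47.7, 33.2 and 42.6 in Foxo1Ctrl (log2 fold change 1.42 ± 0.30, adjusted p = 0.0123). Cdc6, which joins Orc1 in loading the helicase, stood at 735, 648 and 455 against 278, 297 and 243 (1.17 ± 0.22, adjusted p = 0.00783). Neither overlapped between the genotypes. Orc2 and Orc6, other subunits of the complex, had log2 fold changes of 0.43 ± 0.18 (adjusted p = 0.132) and 0.57 ± 0.19 (adjusted p = 0.0622).

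Cdt1, the loading partner of Cdc6, stood at 341, 201 and 121 normalized counts against 207, 96.1 and 245. Its libraries spread over each other within both genotypes (0.27 ± 0.45, adjusted p = 0.704). Geminin (Gmnn), the protein that binds and inhibits Cdt1, stood at 775, 784 and 844 against 354, 687 and 452, all Foxo1TKO values being the higher, and did not pass (0.69 ± 0.25, adjusted p = 0.0834). The TPM ratio of Cdt1 to Gmnn was 0.110 ± 0.0597 in Foxo1TKO and 0.178 ± 0.107 in Foxo1Ctrl (SD, n = 3), which overlapped.

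The primase is a pair of proteins, and their transcripts moved in opposite directions. Prim1, the catalytic subunit, stood at 894, 912 and 745 normalized counts in Foxo1TKO against 426, 568 and 399 in Foxo1Ctrl and rose 1.83-fold (log2 fold change 0.87 ± 0.19, adjusted p = 0.0149). Prim2, the regulatory subunit that passes the primer on to polymerase alpha, stood at 551, 691 and 591 against 1097, 1225 and 1072. It did not overlap between the genotypes and fell by 0.89 ± 0.16 on the log2 scale (adjusted p = 0.0061), the only one of the 49 genes to do so. Prim2 (chr1:33453810-33669795, minus strand, GRCm38) shares no exon base with another annotated gene.

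The reversal was seen in levels per length in every library. Prim1 was 1.97, 1.65 and 1.56 times Prim2 in the Foxo1TKO libraries and 0.445, 0.590 and 0.443 times in the Foxo1Ctrl libraries (means 1.73 ± 0.217 and 0.493 ± 0.0843, SD, n = 3). Prim1 was accordingly the most abundant of the 4 polymerase alpha-primase transcripts in each Foxo1TKO library, and Prim2 in each Foxo1Ctrl library. Pola1, the catalytic subunit of that polymerase, was the least abundant in all 6.

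Pola1 rose (748, 769 and 720.1 against 365, 513 and 370.1 normalized counts, log2 fold change 0.84 ± 0.19, adjusted p = 0.0153). Its accessory subunit Pola2 stood at 773, 425 and 352 against 537, 192 and 491 and overlapped (0.35 ± 0.43, adjusted p = 0.608). Pole, the catalytic subunit of the leading strand polymerase, rose by 1.08 ± 0.31 (adjusted p = 0.0381), but did not pass with effective lengths as offsets (adjusted p = 0.0592), on the authors' normalized signal with a pseudocount of 1 (limma, adjusted p = 0.0518), or without Foxo1TKO 1, Foxo1TKO 2, Foxo1Ctrl 1 or Foxo1Ctrl 3 (log2 fold changes of 0.85 to 1.17). Pold1 and Pold2, the catalytic and an accessory subunit of polymerase delta, had log2 fold changes of 0.96 ± 0.30 (adjusted p = 0.0549) and 0.66 ± 0.39 (adjusted p = 0.261).

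**Figure D3:**
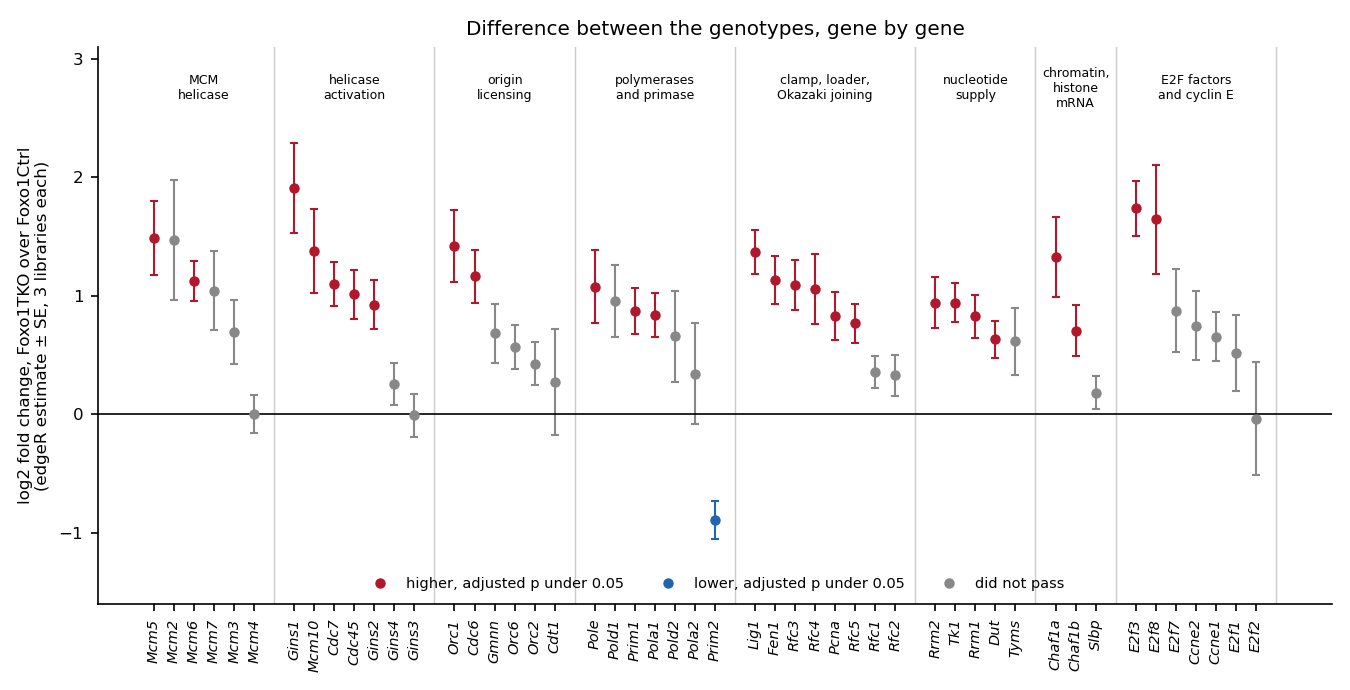
Points are edgeR log2 fold changes of Foxo1TKO over Foxo1Ctrl with their SE, 3 libraries in each group, ordered within each role (red, higher at an adjusted p under 0.05; blue, lower; grey, did not pass). Prim2 is the 1 blue point, at -0.89, and every role holds at least 1 gene that rose and 1 that did not pass.

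The clamp, its loader and the enzymes of Okazaki fragment joining held 6 of 8 genes that rose. Pcna, the sliding clamp that holds polymerases on DNA, stood at 4719, 5564 and 5117 normalized counts in Foxo1TKO against 2305, 3753 and 2604 in Foxo1Ctrl (log2 fold change 0.83 ± 0.20, adjusted p = 0.0216). Its lowest Foxo1TKO library was above its highest Foxo1Ctrl library. With 1 library left out, Pcna passed in 2 of 6 fits (0.68 to 1.08). Lig1, the ligase that seals the fragments, stood at 1280.4, 984 and 888 against 429, 409 and 378, a wide gap (2.59-fold, 1.37 ± 0.19, adjusted p = 0.00191). Fen1, the nuclease that trims their flaps, rose by 1.13 ± 0.20 (adjusted p = 0.00588). Its exons share 1909 bases with the antisense gene Gm10143, which had at most 331 counts in a library. They share 130 bases with Tmem258 on the opposite strand, which had 1538 to 3021 counts per library.

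The 5 subunits of replication factor C, which opens the clamp and loads it, were in part higher. Rfc3 (1.09 ± 0.21, adjusted p = 0.00793), Rfc4 (1.06 ± 0.29, adjusted p = 0.0339) and Rfc5 (0.77 ± 0.17, adjusted p = 0.0130) rose. With 1 library left out, Rfc4 passed in only 1 of 6 fits (0.83 to 1.47). Rfc4 shares 194 exon bases with Eif4a2 on the opposite strand, which had 6636 to 8549 counts per library. Rfc3 stood at 724, 707 and 719 normalized counts against 293, 433 and 281, with the Foxo1TKO libraries nearly equal. Rfc1, the large subunit, and Rfc2 had the lowest differences of the complex, at 0.36 ± 0.14 (adjusted p = 0.0972) and 0.33 ± 0.17 (adjusted p = 0.206). Per length, Rfc2 was the most abundant subunit in all 6 libraries, at 234 to 253 TPM in Foxo1TKO and 174 to 200.5 TPM in Foxo1Ctrl, and thus 5.59 to 8.0 times and 8.92 to 10.7 times the least abundant. Rfc2 shares 952 exon bases with Lat2, which had at most 142 counts.

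In nucleotide supply, 4 of 5 genes were higher, with log2 fold changes of all 5 from 0.62 to 0.94. Ribonucleotide reductase makes deoxynucleotides from ribonucleotides. Its large subunit Rrm1 stood at 3269, 3049.8 and 2174 normalized counts against 1579.8, 1534 and 1668 (0.83 ± 0.18, adjusted p = 0.0136). Its small subunit Rrm2 stood at 3326, 2666 and 1950.0 against 1519, 1414 and 1199.5 (0.94 ± 0.21, adjusted p = 0.0163). Neither overlapped between the genotypes, and the TPM ratio of Rrm2 to Rrm1 was 1.48 ± 0.195 in Foxo1TKO and 1.37 ± 0.275 in Foxo1Ctrl (SD, n = 3), with overlapping library values.

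Tk1, the thymidine kinase of dividing cells, stood at 953, 835 and 789 normalized counts against 454, 483 and 405 (0.94 ± 0.16, adjusted p = 0.00547). Dut, which removes dUTP, rose by 0.63 ± 0.15 (adjusted p = 0.0205), but passed in 2 of 6 fits with 1 library left out (0.54 to 0.71). Tyms, which makes thymidylate, stood at 1302, 1787 and 1846 against 781, 1562 and 874 and did not pass (0.62 ± 0.28, adjusted p = 0.158). Foxo1Ctrl 2 lay above Foxo1TKO 1 for this gene.

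The 2 tested subunits of chromatin assembly factor 1, which deposits histones behind the fork, both rose. Chaf1a stood at 217, 119 and 119 normalized counts against 59.6, 45.7 and 73.6 (1.33 ± 0.34, adjusted p = 0.0246), and Chaf1b rose by 0.70 ± 0.22 (adjusted p = 0.0482). Chaf1b did not pass without any 1 of Foxo1TKO 1, Foxo1TKO 2 and the 3 Foxo1Ctrl libraries (0.58 to 0.79), nor on TPM (limma, adjusted p = 0.0762). Chaf1a shares 4648 exon bases with Ubxn6 on the opposite strand, which had 339 to 702 counts per library, more than Chaf1a itself. In fits on values per length (TPM, the authors' normalized signal or effective lengths as offsets), Chaf1a did not pass. Slbp, which binds the stem-loop of histone mRNA, was the most abundant of the 49 transcripts per length, at 382 to 433 TPM in Foxo1TKO and 318 to 392 TPM in Foxo1Ctrl. Its log2 fold change was 0.18 ± 0.14 (adjusted p = 0.383).

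Among the E2F factors and E-type cyclins, 2 of 7 genes rose. E2f3, an activator of G1/S genes, stood at 189, 194 and 178 normalized counts in Foxo1TKO and at 56.0, 62.9 and 47.5 in Foxo1Ctrl. Its libraries were close together within each genotype and did not overlap between them (3.34-fold, log2 fold change 1.74 ± 0.23, adjusted p = 0.00167, the smallest adjusted p of the 49). E2f8, a repressor of the same promoters, rose from low counts (43.9, 31.6 and 25.8 against 4.77, 14.9 and 10.7, 1.65 ± 0.46, adjusted p = 0.0352). It did not pass without Foxo1TKO 1, Foxo1TKO 2, Foxo1Ctrl 1 or Foxo1Ctrl 3 (1.34 to 1.7).

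The other activators, E2f1 and E2f2, did not pass. E2f1 stood at 86.2, 65.8 and 52.6 normalized counts against 57.2, 35.5 and 49.4 (0.52 ± 0.32, adjusted p = 0.286). E2f2 stood at 680.4, 376 and 205 against 587, 221 and 488, a wide spread inside each genotype (-0.04 ± 0.48, adjusted p = 0.967). Per length, E2f2 was nevertheless the most abundant of these 5 E2F transcripts in every library, at 2.76 to 11.2 TPM in Foxo1TKO and 2.73 to 8.76 TPM in Foxo1Ctrl, and E2f3 lay at 2.46 to 2.95 TPM against 0.720 to 0.850 TPM. E2f7, another repressor, had a log2 fold change of 0.87 ± 0.35 (adjusted p = 0.111). Ccne1 and Ccne2, the cyclins E that activate Cdk2 at the G1/S boundary, had 0.66 ± 0.20 (adjusted p = 0.0511) and 0.75 ± 0.29 (adjusted p = 0.102), with Foxo1TKO libraries above Foxo1Ctrl libraries for both.

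Summed over the 49 genes, the level was 3013, 2707 and 2282 TPM in Foxo1TKO libraries 1 to 3 and 1652, 1594 and 1776 TPM in Foxo1Ctrl. The Foxo1TKO sum was the higher in all pairs of libraries (2667 ± 367 against 1674 ± 92.6, SD, n = 3). Within Foxo1TKO the order of libraries differed between genes. Foxo1TKO 1 was the highest for 28 of the 49 genes and the lowest for 12. Foxo1TKO 3 was the lowest for 32 and the highest for 6. Foxo1Ctrl 2 was the highest Foxo1Ctrl library for 24 genes and the lowest for 20.

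These deviations within a genotype went with the GC content of the transcripts. The GC content of the 49 genes ran from 37.5% (Ccne2) to 60.6% (Pold1). Across the 49 genes, the log2 deviation from the genotype mean correlated with GC content at Pearson's r = 0.634, -0.542 and -0.451 in Foxo1TKO 1 to 3 and 0.587, -0.678 and 0.549 in Foxo1Ctrl 1 to 3. Over all 13679 genes with a GC content the same correlations were 0.337, -0.174, -0.204, 0.275, -0.364 and 0.213. Genes are not independent replicates and share their libraries, so these are descriptions.

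**Figure D4:**
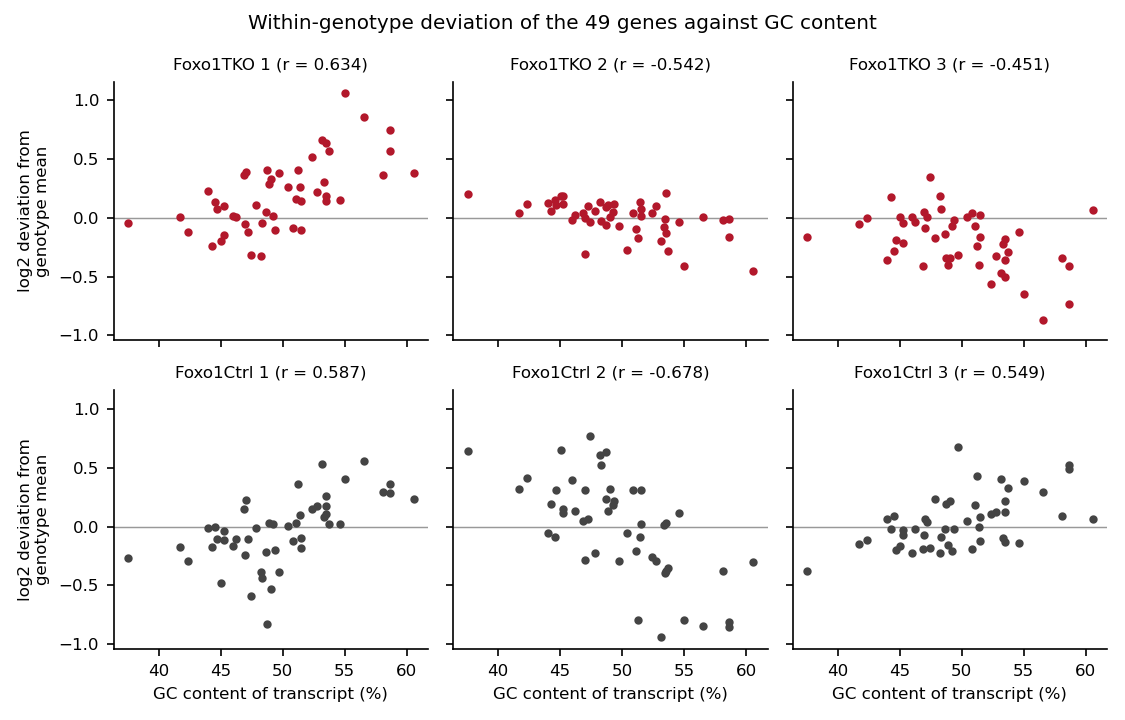
Each panel is 1 library and each point 1 of the 49 genes, with GC content of the transcripts on the x axis (%) and the log2 deviation of the library from the mean of its genotype on the y axis. GC-rich genes are high in Foxo1TKO 1, Foxo1Ctrl 1 and Foxo1Ctrl 3 and low in Foxo1Ctrl 2 and Foxo1TKO 3.

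With the 49 genes divided by GC content into 3 groups, the median log2 fold change was 0.83 in the genes of lowest GC content (9 of 16 higher), 1.01 in the middle group (10 of 17) and 0.82 in the genes of highest GC content (7 of 16). With a smooth GC correction of each library, an alternative chosen after the data were seen, the medians were 0.94, 1.01 and 0.70, and 33 genes were higher and 1 lower. All 27 genes that had passed before passed with it, and Mcm2, Mcm7, Orc2, Orc6, Pold1, Ccne1 and Ccne2 passed as well.

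The count of genes that rose moved with single libraries. It was 13 without Foxo1TKO 2, 15 without Foxo1Ctrl 1 and 16 without Foxo1Ctrl 3, and 19, 26 and 29 without Foxo1TKO 1, Foxo1TKO 3 and Foxo1Ctrl 2, in each case beside Prim2 as the 1 gene that fell. Passing in all 6 of these fits were 13 of the 27 genes: Mcm5, Mcm6, Gins1, Cdc7, Orc1, Cdc6, Prim2, Rfc3, Rfc5, Fen1, Lig1, Tk1 and E2f3. Without Foxo1TKO 2 the genes that no longer passed were Cdc45, Chaf1b, Dut, E2f8, Gins2, Mcm10, Pcna, Pola1, Pole, Prim1, Rfc4, Rrm1 and Rrm2, and Chaf1a was lost without Foxo1TKO 1, Foxo1Ctrl 1 or Foxo1Ctrl 2. With Foxo1TKO 1 and Foxo1Ctrl 2 both set aside, each the farthest from its group's mean on the second principal component, 32 genes were higher and 2 lower. Of the 27 genes, 24 passed there and Chaf1a, Chaf1b and Mcm10 did not, and the second gene that fell was E2f2 (log2 fold change -0.88 ± 0.27, edgeR's quasi-likelihood test, adjusted p = 0.0353).

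Genes that act around the same step were read from lists made for comparison. Of 55 other replication genes, 18 were higher (32.7%) and 2 lower (3.64%), with a median log2 fold change of 0.49. The count of those that rose was 7 without Foxo1TKO 2 or Foxo1Ctrl 1 and 10 without Foxo1Ctrl 3. Cdca7, a chromatin factor, rose by 2.45 ± 0.25, Ung, a uracil glycosylase, by 2.13 ± 0.44, and Ctps, a CTP synthase, by 2.09 ± 0.31. The 2 that fell both belong to deoxynucleotide metabolism. Samhd1, which degrades dNTPs, stood at 2367 ± 203 normalized counts in Foxo1TKO against 33028 ± 4641 in Foxo1Ctrl (SD, n = 3, log2 fold change -3.80 ± 0.18, adjusted p = 3.42e-05). Dck, deoxycytidine kinase, fell by 2.29 ± 0.20. The log2 fold change was positive for 43 of the 55, while their summed level, which in Foxo1Ctrl was led by Samhd1, was 2173 to 2341 TPM in Foxo1TKO against 2617 to 3139 TPM.

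Among other E2F, DP, pocket protein and cyclin-dependent kinase genes, 8 of 21 were higher (38.1% against 11.8% of all genes) and 1 lower (4.76% against 12.4%). Their median was 0.62. The count of those that rose was 4 without Foxo1TKO 1 or Foxo1Ctrl 3 and 3 without Foxo1TKO 2, Foxo1TKO 3 or Foxo1Ctrl 1. Cdk4, a G1 kinase, stood at 5948 ± 348 normalized counts against 2102 ± 299.7 (log2 fold change 1.5 ± 0.16, adjusted p = 0.000585). Tfdp1, the partner with which E2F factors bind DNA, rose by 1.24 ± 0.20, the repressor E2f6 by 1.41 ± 0.36 and Cdk1 by 1.04 ± 0.30. E2f6 did not pass without Foxo1TKO 2, Foxo1TKO 3, Foxo1Ctrl 1 or Foxo1Ctrl 3 (1.19 to 1.39), and Cdk1 passed only in the fit without Foxo1Ctrl 2 when 1 library was left out (0.80 to 1.15 in the other 5 fits). Fbxw7, which marks cyclin E for degradation, fell by 1.41 ± 0.25 (adjusted p = 0.00563).

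Of 12 brakes and D-type cyclins tested, 3 were lower and 1 higher (median -0.22). The inhibitors Cdkn1b (p27) and Cdkn2d (p19) fell by 1.92 ± 0.22 and 1.18 ± 0.14, the antiproliferative gene Btg2 fell by 1.05 ± 0.17, and cyclin D2 (Ccnd2) rose by 0.57 ± 0.15. Ccnd2 did not pass without Foxo1TKO 1, Foxo1TKO 2, Foxo1TKO 3 or Foxo1Ctrl 1 (0.52 to 0.63).

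Of 52 genes of G2/M and mitosis, 5 were higher (9.62%) and 2 lower (3.85%), both shares below those of all genes, with a median log2 fold change of 0.37 and positive values for 42. Bub1b, Incenp and Ncaph, of the spindle checkpoint, the chromosomal passenger complex and condensin, rose by 1.21 ± 0.26, 1.18 ± 0.21 and 1.16 ± 0.20. Bub1b did not pass without Foxo1TKO 2 (1.22) or Foxo1Ctrl 3 (1.11). Cdc25b, a phosphatase that activates Cdk1, fell by 3.37 ± 0.22, and the condensin subunit Smc4 by 1.5 ± 0.18. The count of G2/M genes that rose was 12 without Foxo1Ctrl 2, 3 without Foxo1TKO 1 or Foxo1Ctrl 1, 2 without Foxo1TKO 2 or Foxo1Ctrl 3, and 15 with Foxo1TKO 1 and Foxo1Ctrl 2 set aside. Whether the replication genes differ from the G2/M genes was not tested.

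Of 15 genes of the replication checkpoint, 4 were higher (26.7%) with a median of 0.18. Chek1 and Chek2, the checkpoint kinases, rose by 1.82 ± 0.33 (adjusted p = 0.0064) and 1.17 ± 0.21 (adjusted p = 0.00572). Wee1, which restrains Cdk1, rose by 1.39 ± 0.21 and Fancd2, of interstrand crosslink repair, by 1.06 ± 0.24. Fancd2 did not pass without Foxo1TKO 2 (0.95) or Foxo1Ctrl 3 (0.97).

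**Figure D5:**
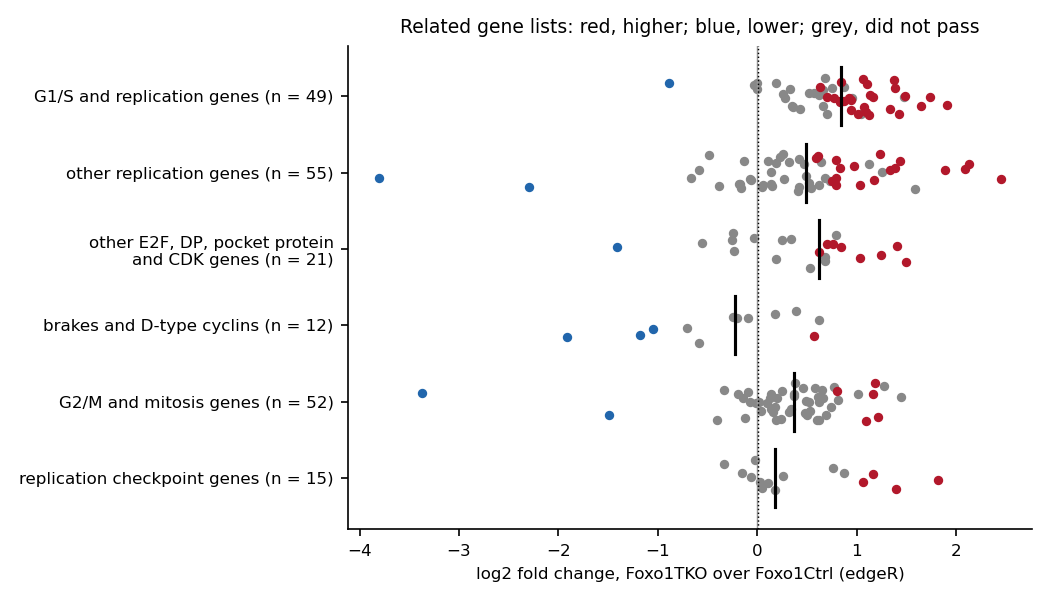
Points are edgeR log2 fold changes of Foxo1TKO over Foxo1Ctrl for each gene tested in 6 lists, with red for higher, blue for lower and grey for genes that did not pass, black bars for list medians and a dotted line for the median of all genes (0.01). The median is 0.84 for the 49 G1/S and replication genes, 0.37 for G2/M genes and -0.22 for brakes and D-type cyclins.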

How the data were processed

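The authors deposited, for each of the 6 libraries, RSEM 1.3.1 expected counts, TPM and effective gene lengths, from reads aligned with STAR 2.7.6a to Ensembl GRCm38. They also deposited a normalized signal, which matched the counts divided by DESeq2 size factors and relative effective lengths. Libraries were grouped by title. Strandedness is not given in the sources used here, and RSEM divides reads shared by several genes.

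After rounding, 13691 genes (10 counts or more in 3 libraries or more) were tested with edgeR 4.0.16 in R 4.3.3 (TMM, two-sided quasi-likelihood test, prior count 1, genotype as the only term), with Benjamini-Hochberg adjustment over all of them and a threshold of 0.05. P-values measure the spread between these libraries, since nothing says that they are separate mice. Library totals of 14783890 to 19675447 limit the precision of low genes. Exon overlaps and transcript GC content came from GENCODE M21 (GRCm38). The scripts' tests were tried on simulated data.

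Alternatives were DESeq2 1.42.0, limma-voom (limma 3.58.1), 2 other scalings, 2 other filters, effective lengths as offsets, limma on the log2 normalized signal (pseudocount 1 or 10) and on TPM (pseudocount 0.5), the replicate number as a block and each library left out. A GC correction (a smooth curve of log counts on GC content per library), alone or with the block, and a fit without Foxo1TKO 1 and Foxo1Ctrl 2 were added after seeing the data.

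The genes, roles and lists were chosen with earlier results of these data known, and no list was tested as a set. Named were all 49 genes, Foxo1, Foxo3 and some of the genes overlapping the 49. Related lists gave up to 5 names each, by largest absolute log2 fold change among genes that passed and averaged 100 normalized counts or more. The most abundant marker was named for some of the marker lists only. Other markers were named after their values were seen. Summed markers of CD8 T cells were 4.27 to 6.48 TPM in Foxo1TKO against 6.87 to 8.29, of neutrophils 0.28 to 7.84 against 0 to 0.31, and of erythroid cells 35.8 to 65.2 against 41.6 to 70.0.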

Additional observations from a re-analysis of the deposited data

How the results depend on the processing

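Under the 11 alternatives that kept all libraries, GC corrections aside, 24 to 31 genes rose and 1 fell, with medians of 0.82 to 0.86, and 23 of the 27 genes passed in all 11. With 1 library left out, 13 to 29 genes rose (13 to 27 at over 1.5-fold), 1 fell, and the median was 0.74 to 0.98, the highest without Foxo1Ctrl 2. With Foxo1TKO 1 and Foxo1Ctrl 2 set aside, 2 fell, both over 1.5-fold. These counts again stand without the share of all genes in the same fit. Over all gene results and alternatives, 1322 kept direction and side of the threshold, 78 lost the threshold, 53 gained it and 27 reversed. The reversals were all of genes that did not pass. Mcm4 was -0.0071 under upper quartile scaling, -0.0087 with limma-voom and with the replicate block, -0.0051 and -0.005 on the normalized signal, -0.1062 with both libraries set aside and -0.0737 to 0.1297 with 1 left out. Gins3 was 0.0009 with limma-voom, 0.0017 without a filter and with the block, 0.162 with both set aside and -0.1108 to 0.1258 with 1 left out. Cdt1 (-0.4851), Pola2 (-0.4025) and Pold2 (-0.0017) were negative with both set aside, and with 1 left out Cdt1 was -0.1891 to 0.5645, Pola2 -0.0734 to 0.6001 and E2f2 -0.5749 to 0.2904. The cause was not tested. DESeq2 and the block gave 10 and 9 higher G2/M genes in place of 5, and DESeq2 gave 6 higher checkpoint genes in place of 4.

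Same-numbered libraries correlated in their deviations at 0.432, 0.198 and -0.109, and not every library correlated best with its own number. Such deviations went with GC content, so these correlations cannot show whether the cultures were paired. The paper analysed flow cytometry of such cultures as paired experiments, and does not say whether the library numbers are pairs. The main fit did not pair the samples. With the replicate number as a block, 27 of the 49 genes rose and 1 fell, and 24 of the 27 genes passed, all but Pole, Chaf1b and E2f8 (adjusted p of 0.0571, 0.0556 and 0.0649). At these depths, log2 differences of the genes with a Foxo1Ctrl mean under 50 counts (Orc1, E2f1, E2f7 and E2f8) were estimated with SEs of 0.30 to 0.46. Some genes with more counts had SEs in or above that range. They were Mcm2 (0.51, Foxo1Ctrl mean 297), E2f2 (0.48, 432), Cdt1 (0.45, 183) and Pola2 (0.43, 407).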
